A study of Mus musculus with 8 samples.

Results

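The 10 genes described here are the D-type cyclins Ccnd1, Ccnd2 and Ccnd3, their kinases Cdk4 and Cdk6, the CIP/KIP inhibitors Cdkn1a, Cdkn1b and Cdkn1c, and the INK4 inhibitors Cdkn2b and Cdkn2c. They were taken by name, as every non-control probe whose array name or current symbol through its accession is one of these, which gave 17 of 41174 probes and 10 of 27597 named features. The cells are IMCD3, an established line of mouse kidney cells from the inner medullary collecting duct, which came from a mouse carrying the SV40 early region, whose large T antigen binds proteins of the retinoblastoma family. Starved cells were kept for 48 h in medium without fetal calf serum to bring out cilia. Unstarved cells stayed in 10% serum, were split 1:10 on the previous day and had not reached confluence, so the groups differ in serum and in density at once and the share of each cannot be told apart. The labels name no allele, transgene or drug in either group. RNA of 4 starved and 4 unstarved samples was hybridised in pairs on 4 Agilent 2-colour arrays, which form 2 biological replicates. The series title ties the screen to FOXJ1, a transcription factor of motile cilia, and the question here is what starvation does to the genes that set exit from the cycle.

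D-type cyclins are made in response to growth factors and activate CDK4 and CDK6, which phosphorylate the retinoblastoma protein and so release E2F factors at the entry into S phase. INK4 proteins bind CDK4 and CDK6 and keep them from the D cyclins, while CIP/KIP proteins bind assembled cyclin and kinase complexes and block CDK2 most strongly. A cell that leaves the cycle can form a primary cilium from its older centriole, and serum withdrawal is the usual way to bring this about in cultured kidney epithelium.

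The promoters of Cdkn2b, Cdkn1a and Cdk4 are shown because each holds a short factor motif that few promoters of the same length hold. Whether a motif goes with the response of its gene to starvation was not tested. Each line is the 250 bases before an annotated start, 5′ to 3′ on the gene's own strand, from RefSeq on GRCm38.p6, with the motif in capitals. The windows are chr4:89311033-89311282 (minus strand) for Cdkn2b, chr17:29090729-29090978 (plus strand, the upstream one of 2 Cdkn1a starts) and chr10:127063285-127063534 (plus strand) for Cdk4.
Cdkn2b: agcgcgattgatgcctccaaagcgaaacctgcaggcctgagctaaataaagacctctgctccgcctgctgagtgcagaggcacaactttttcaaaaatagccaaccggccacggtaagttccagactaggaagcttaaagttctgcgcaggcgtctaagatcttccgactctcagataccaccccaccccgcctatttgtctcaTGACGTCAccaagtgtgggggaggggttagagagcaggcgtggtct
Cdkn1a: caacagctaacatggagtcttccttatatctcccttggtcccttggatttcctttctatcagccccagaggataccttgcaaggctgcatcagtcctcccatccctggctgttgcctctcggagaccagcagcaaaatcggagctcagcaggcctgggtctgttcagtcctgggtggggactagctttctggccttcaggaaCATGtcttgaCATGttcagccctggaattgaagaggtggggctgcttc
Cdk4: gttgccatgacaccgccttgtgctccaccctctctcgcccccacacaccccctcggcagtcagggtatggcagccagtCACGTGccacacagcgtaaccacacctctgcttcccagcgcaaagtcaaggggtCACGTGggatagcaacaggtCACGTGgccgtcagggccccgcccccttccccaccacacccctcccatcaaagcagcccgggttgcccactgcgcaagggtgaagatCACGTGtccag

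Cdkn2b carried 1 full cyclic AMP response element, TGACGTCA, starting 46 bases before the start, a motif found in 508 of 32851 promoter windows (1.55%). The upstream Cdkn1a window held the core letters of a p53 site, CATG followed by any 6 bases and a second CATG, and 0.49% of windows held that pattern. Cdk4 held the E-box CACGTG, the core that MYC and USF proteins bind, at 4 places. Of all windows 6.02% held at least 1 such E-box and 7 (0.0213%) held 4 or more. In total 7 of the 10 genes matched 10 windows, both strands were read, and no 2 motifs overlapped. Elsewhere among these windows there was 1 CACGTG in Cdk6 and 1 forkhead motif GTAAACA in the upstream window of Ccnd3 (3.17% of all windows). The E2F motif TTTNGCGC (1.13%) and the AP-1 motif TGANTCA (6.75%) were in none of the 10 windows. At such shares so few windows cannot show that a motif is lacking. Ccnd1, Ccnd2 and Cdkn1c had no window, so their promoters were not read for any motif. These are matches of letters and not measured binding.

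Probes of Cdk4, Cdk6 and Cdkn1b are shown next, as 60-base sequences of the array design in the sense of the transcript. Those of Cdk6 and Cdkn1b are not the brightest probes of their genes, on which the gene calls below rest. No exon or UTR annotation of the probes was used here. Probe positions throughout are those of the array annotation on mm8 and differ from the GRCm38.p6 positions above.
Cdk4 (A_51_P437027, chr10:126467860-126467919, plus strand): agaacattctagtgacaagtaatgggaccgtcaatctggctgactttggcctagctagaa
Cdk6 (A_52_P417489, chr5:3479226-3521510, plus strand): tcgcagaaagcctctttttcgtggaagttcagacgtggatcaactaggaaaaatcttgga
Cdkn1b (A_51_P169173, chr6:134886778-134886836, plus strand): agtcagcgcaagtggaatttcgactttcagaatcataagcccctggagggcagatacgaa

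The Cdk6 probe covers 42285 bases of genome with its 60 bases and is therefore placed across an intron. It lies 5′ of the other Cdk6 probes, A_51_P388310 (chr5:3527675-3527734) and A_51_P489779 (chr5:3535293-3535352). The Cdkn1b probe likewise lies 5′ of A_52_P673863 (chr6:134889281-134889340) and A_51_P146126 (chr6:134890890-134890949).

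Each value below is a log2 ratio, starved over unstarved, within a hybridisation. Hybridisations 1 and 3 belong to replicate 1, with starved RNA in Cy5, and hybridisations 2 and 4 to replicate 2, with starved RNA in Cy3. Replicate and dye orientation thus go together, and a dye effect cancels in the mean of both replicates but not in a single one. Each fold change is the mean of 2 replicates with the moderated standard error of limma, tested against 0 over 16080 genes, and a call is a Benjamini-Hochberg adjusted p below 0.05. In bulk RNA a lower value can mean fewer cells expressing a gene or less RNA per cell, and these cannot be told apart.

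Of the 9 members that could be tested, the 5 CDK inhibitors were called higher in starved cells, Ccnd1, Ccnd3 and Cdk6 were called lower, and Cdk4 did not pass. Over all genes tested 31.4% were called, 18.1% higher and 13.4% lower, so 8 calls among 9 genes is above the background share. The members were chosen with earlier results of these data known, so this excess is not a test of them. The calls of Cdk6 and Cdkn1a were at the threshold, and with median centring in place of loess only Ccnd1 was called. The median log2 ratio was 0.35 over the 9 members and 0.01 over all genes. By size, Ccnd1 and Cdkn2b differed at least 2-fold in both replicates, as 3.56% of genes did. Single-channel levels of the 4 starved and the 4 unstarved samples did not overlap for 8 of the 9, and for 51.8% of all genes tested.

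**Figure D1:**
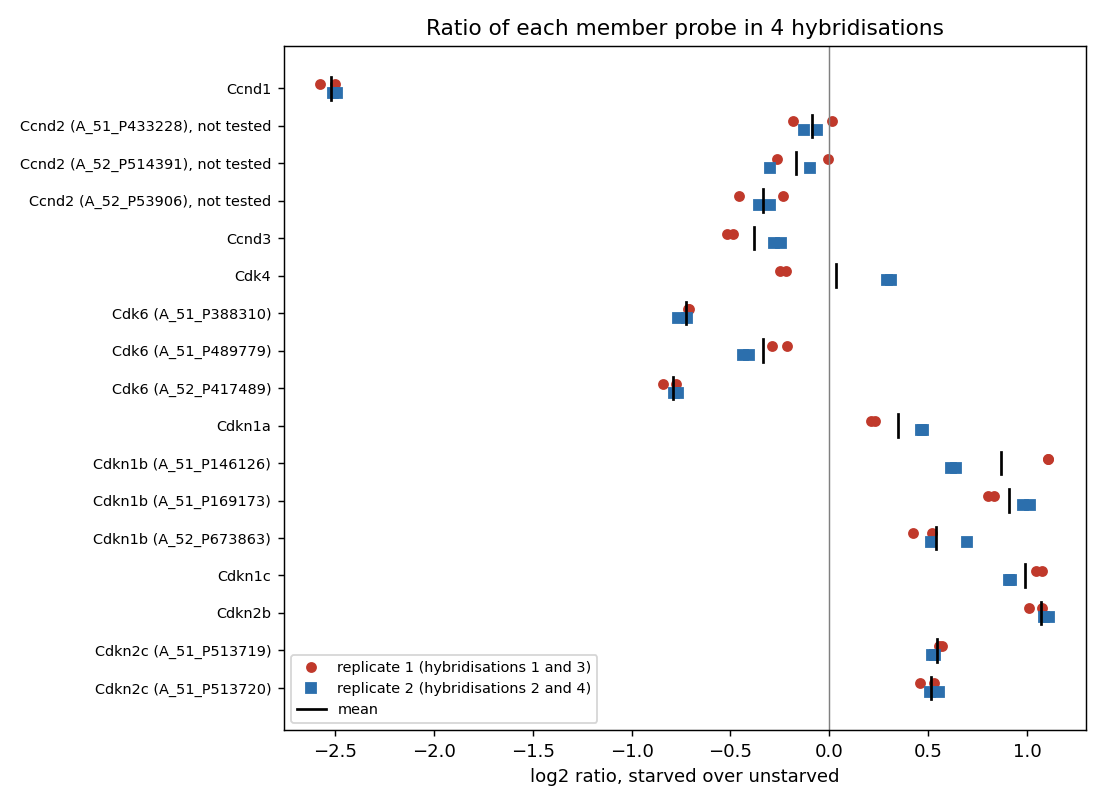
Log2 ratio, starved over unstarved, for each of the 17 member probes (rows), with hybridisations 1 and 3 of replicate 1 as red circles, hybridisations 2 and 4 of replicate 2 as blue squares and the mean as a black bar. Ccnd1 lies near -2.52 in all 4 hybridisations, the inhibitors lie to the right of 0, and Cdk4 lies on opposite sides of 0 in the 2 replicates.

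Ccnd1 encodes cyclin D1, the D cyclin most tied to mitogen signalling in epithelial cells. Its log2 ratio was -2.57 and -2.50 in hybridisations 1 and 3, and -2.49 and -2.51 in hybridisations 2 and 4. Its log2 level was 11.24, 11.29, 11.33 and 11.32 in the starved samples (hybridisations 1, 3, 2 and 4), against 13.82, 13.79, 13.82 and 13.83 in the unstarved samples. Every starved sample was more than 2 log2 units below every unstarved one. Ccnd1 fell 5.73-fold (log2 ratio -2.52 ± 0.12 SE, n = 2, limma adjusted p = 4.95e-10), with a 95% interval of -2.78 to -2.26. The array carries 10 copies of its probe (chr7:144739658-144739717, minus strand), and their SD within an array was 0.022 to 0.039. It is the largest change among the members tested and the only one of them that stayed called under each of the 18 processing alternatives run.

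Ccnd3 encodes cyclin D3, the D cyclin that many differentiated cells retain. Its log2 ratio was -0.52 and -0.49 in hybridisations 1 and 3, and -0.24 and -0.28 in hybridisations 2 and 4. Log2 levels were 12.93, 12.96, 13.03 and 13.06 in starved samples, against 13.45, 13.45, 13.28 and 13.34 in unstarved samples, with no overlap. Ccnd3 fell 1.30-fold (-0.38 ± 0.13, limma adjusted p = 0.0293). The fall was larger in replicate 1 (-0.50) than in replicate 2 (-0.26).

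Ccnd2, which encodes cyclin D2, was not well above background with any of its 3 probes. A_51_P433228 and A_52_P514391 passed on 0 of 4 arrays in starved samples and 0 of 4 in unstarved samples. A_52_P53906 passed on 0 of 4 arrays in starved and 2 of 4 in unstarved samples. In the order named, their mean log2 levels were 6.71, 6.68 and 6.76 in starved samples, against 6.80, 6.85 and 7.09 in unstarved samples. Levels of the groups overlapped for each probe, and no fold is given because both groups sat near background. Of the D cyclin transcripts, 2 of 3 were therefore measurable in these cells, and both were called lower after starvation.

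Cdk4 and Cdk6 encode the catalytic partners of the D cyclins. Cdk4 had log2 ratios of -0.25 and -0.22 in hybridisations 1 and 3 and of 0.31 and 0.29 in hybridisations 2 and 4. Its log2 level was 15.23, 15.12, 15.38 and 15.40 in starved samples, against 15.48, 15.34, 15.07 and 15.11 in unstarved samples. The replicates lay on opposite sides of 0 and the groups overlapped, while both arrays of a replicate lay within 0.03 of each other. The mean ratio was 0.03 ± 0.14 (limma adjusted p = 0.878), with a 95% interval of -0.26 to 0.33. A p that misses the threshold does not show that Cdk4 stayed level. The array annotation lists a further predicted RefSeq transcript under the Cdk4 probe, so a near-identical copy could share its signal.

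Cdk6 was lower in starved cells on all 3 of its probes, but by unequal amounts. The brightest, A_51_P489779 at the 3′ side, gave -0.29 and -0.21 in hybridisations 1 and 3 and -0.41 and -0.44 in hybridisations 2 and 4. The log2 level of this probe was 15.58, 15.63, 15.47 and 15.49 in starved samples, against 15.88, 15.84, 15.88 and 15.92 in unstarved samples, with no overlap. Cdk6 fell 1.26-fold on this probe (-0.34 ± 0.12, limma adjusted p = 0.04997), which is at the threshold. When every probe was tested as a feature of its own, 29.5% of 24610 probes were called and this one was not (adjusted p = 0.0569). The call also ended without hybridisation 1 (adjusted p = 0.0516), without hybridisation 4 (0.0582) and with replicate as a random block (0.0525).

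The other Cdk6 probes showed a larger difference. A_51_P388310 gave -0.71, -0.71, -0.72 and -0.76 in hybridisations 1, 3, 2 and 4, a mean of -0.73 ± 0.13 (limma adjusted p = 3.10e-04 over all probes). A_52_P417489, the probe printed above, gave -0.84, -0.78, -0.78 and -0.76, a mean of -0.79 ± 0.13 (limma adjusted p = 1.36e-04). Over the mean of the 3 probes the log2 ratio was -0.62 (limma adjusted p = 0.00218). The size of the Cdk6 fall thus depended on the probe, from -0.34 to -0.79, while the direction of its mean did not. The difference between probes was not tested.

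**Figure D2:**
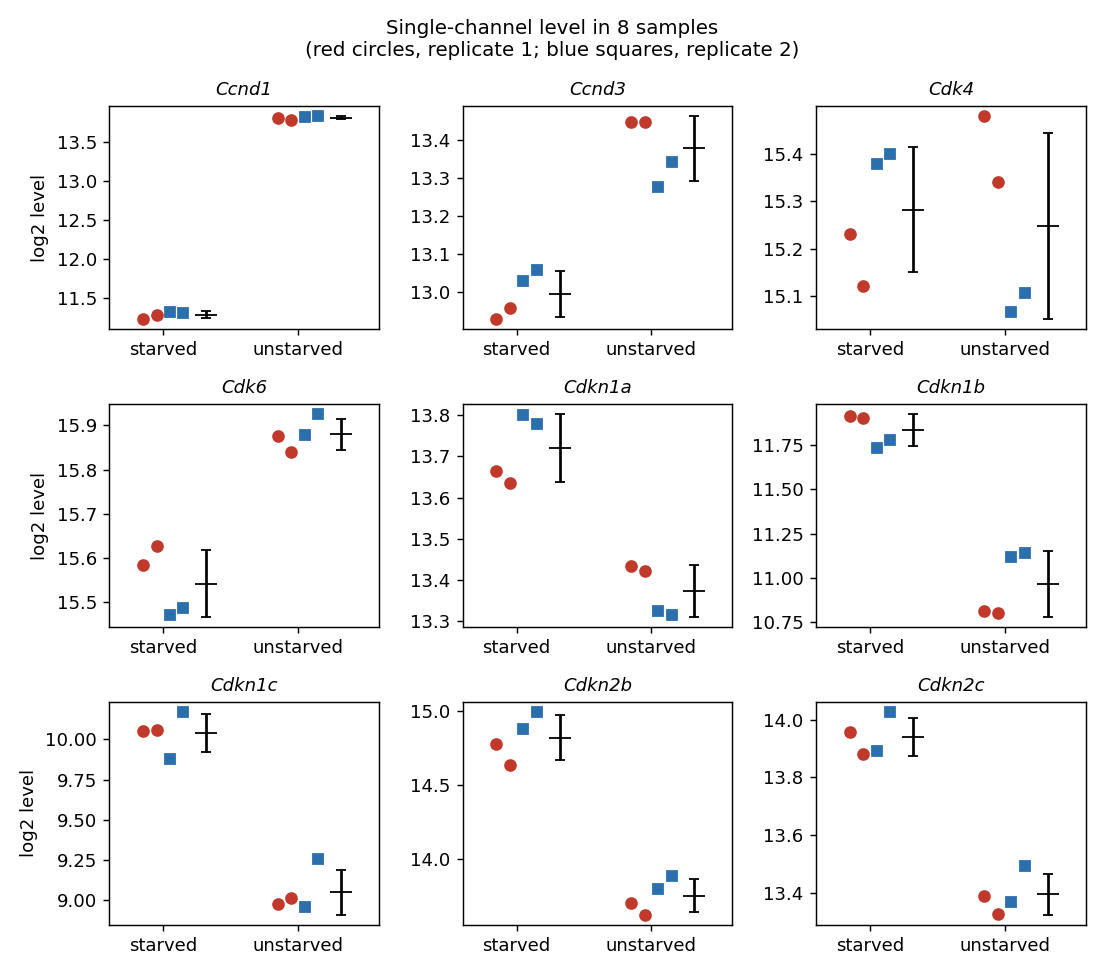
Log2 single-channel level of the representative probe of each tested member in the 4 starved (left) and 4 unstarved (right) samples, with replicate 1 as red circles and replicate 2 as blue squares; the black bar is the mean with the SD of 4 samples, and each panel has its own axis. The 4 samples of a group are 2 replicates on 2 arrays each, so the SD is not the spread between replicates alone. The groups separate in every panel but that of Cdk4, and the Ccnd1 panel has the widest gap.

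Among the CIP/KIP inhibitors, Cdkn1b encodes p27, which is known to accumulate in serum-deprived cells largely through slower breakdown of the protein. Its representative probe A_51_P146126 gave 1.11 and 1.11 in hybridisations 1 and 3 and 0.62 and 0.64 in hybridisations 2 and 4. Log2 levels on this probe were 11.92, 11.91, 11.74 and 11.78 in starved samples, against 10.81, 10.80, 11.12 and 11.14 in unstarved samples. All starved samples were above all unstarved ones, and the gap was wider in replicate 1. Cdkn1b rose 1.83-fold (0.87 ± 0.14, limma adjusted p = 1.37e-04).

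The Cdkn1b probe whose sequence is given above, A_51_P169173, is printed 10 times on the array and gave 0.80 and 0.83 in hybridisations 1 and 3 and 1.02 and 0.98 in hybridisations 2 and 4. Its mean was 0.91 ± 0.13 (limma adjusted p = 3.66e-05 over all probes), close to that of the representative probe. Which replicate showed the larger rise was opposite on these probes, replicate 1 (1.11 against 0.63 in replicate 2) on A_51_P146126 and replicate 2 (1.00 against 0.82 in replicate 1) on A_51_P169173. A_52_P673863 was well above background on 4 of 4 arrays in starved and 0 of 4 in unstarved samples, with mean log2 levels of 7.42 in starved and 6.88 in unstarved samples. Starved cells gave at least 1.39-fold more signal on this probe. That bound sets the starved mean against a floor for the unstarved samples. On each array the floor was the higher of the unstarved reading and the dimmest signal that passed as above background. The limma adjusted p of 0.00385 over all probes belongs to the measured log2 ratio of 0.54 and not to the bound. The probe entered that test through the starved group alone, so this p is no separate support.

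Cdkn1c encodes p57, the imprinted member of the family and the one most tied to tissue differentiation. It gave 1.08 and 1.05 in hybridisations 1 and 3 and 0.92 and 0.91 in hybridisations 2 and 4. Its log2 level was 10.05, 10.06, 9.88 and 10.17 in starved samples, against 8.97, 9.01, 8.96 and 9.26 in unstarved samples, with no overlap. Cdkn1c rose 1.98-fold (0.99 ± 0.12, limma adjusted p = 1.40e-05).

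Cdkn1a encodes p21, a direct target of p53. It gave 0.23 and 0.21 in hybridisations 1 and 3 and 0.47 and 0.47 in hybridisations 2 and 4. Starved samples had log2 levels of 13.66, 13.64, 13.80 and 13.78, against 13.43, 13.42, 13.33 and 13.31 in unstarved samples, with no overlap. Cdkn1a rose 1.27-fold (0.35 ± 0.13, limma adjusted p = 0.0482), the smallest rise among the inhibitors, and this call was at the threshold, ending with the scanner's processed signals (adjusted p = 0.098). The SD over the copies of its probe within an array was 0.016 to 0.018, which is the error of reading 1 hybridisation and not the spread between samples.

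**Figure D3:**
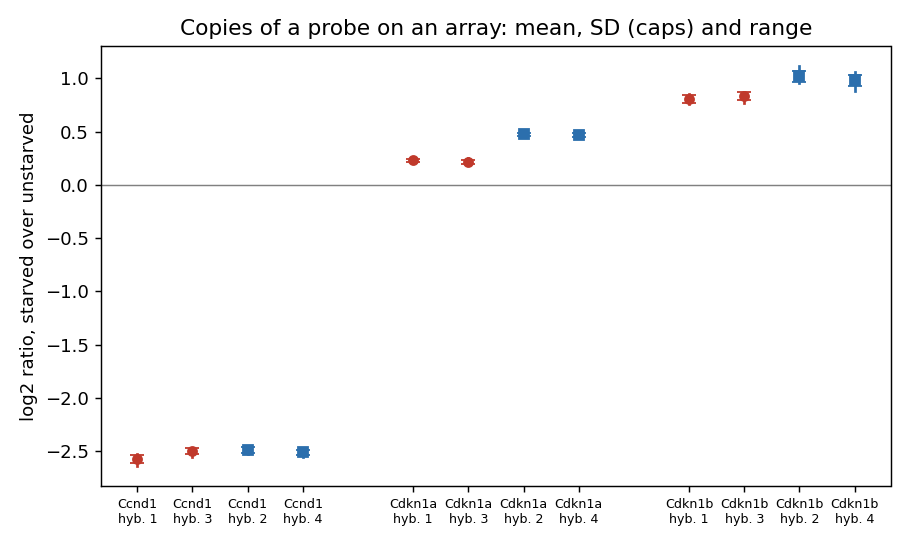
Log2 ratio, starved over unstarved, on the copies of the 3 member probes that are printed 10 times, by hybridisation, as mean with SD (caps) and the full range (line), replicate 1 in red and replicate 2 in blue. Copies on an array lie close together, and the replicates stand apart for Cdkn1a (0.22 in replicate 1, 0.47 in replicate 2) and for this Cdkn1b probe (0.82 and 1.00), but not for Ccnd1 (-2.54 and -2.50).

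The INK4 inhibitors measured here bind CDK4 and CDK6 alone. Cdkn2b encodes p15, known as a target of TGF-beta signalling. It gave 1.08 and 1.01 in hybridisations 1 and 3 and 1.08 and 1.11 in hybridisations 2 and 4. The log2 level of Cdkn2b was 14.78, 14.63, 14.88 and 14.99 in starved samples, against 13.70, 13.62, 13.80 and 13.88 in unstarved samples. All 4 hybridisations agree within 0.10, and every starved sample was above every unstarved one. Cdkn2b rose 2.10-fold (1.07 ± 0.12, limma adjusted p = 5.26e-06), the largest rise among the members tested.

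Cdkn2c encodes p18. Its representative probe A_51_P513719 gave 0.57 and 0.55 in hybridisations 1 and 3 and 0.52 and 0.53 in hybridisations 2 and 4. On this probe the log2 level was 13.96, 13.88, 13.89 and 14.03 in starved samples, against 13.39, 13.33, 13.37 and 13.49 in unstarved samples, with no overlap. Cdkn2c rose 1.46-fold (0.54 ± 0.12, limma adjusted p = 0.00282). The other probe, A_51_P513720, gave 0.51 ± 0.13 (limma adjusted p = 0.00519 over all probes). The probes share 40 of their 60 bases and so are not independent readings.

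By log2 ratio the members ran from Cdkn2b (1.07) through Cdkn1c (0.99), Cdkn1b (0.87), Cdkn2c (0.54), Cdkn1a (0.35), Cdk4 (0.03), Cdk6 (-0.34) and Ccnd3 (-0.38) to Ccnd1 (-2.52). The place of Cdk6 rests on its brightest probe, and with the mean of its 3 probes (-0.62) it would stand below Ccnd3. The 95% intervals of neighbours in this order overlapped except at the Ccnd1 end, where the interval of Ccnd3 began at -0.65 and that of Ccnd1 ended at -2.26. The intervals of Cdkn2b, Cdkn1c and Cdkn1b overlapped widely (0.81 to 1.33, 0.72 to 1.25 and 0.58 to 1.16). Ratios of single genes were not tested against each other.

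The genes whose 4 hybridisation ratios lay nearest to those of Ccnd1, by root mean square distance over 4 hybridisations, were Vim, which encodes the intermediate filament vimentin (distance 0.11), Adam8, a membrane metalloprotease (0.12), Rgs16, a regulator of G protein signalling (0.14), and Dlx2, a homeobox factor (0.15). Their log2 ratios were -2.59, -2.41, -2.44 and -2.50. Nearest to Cdkn2b were Slc23a3, of the ascorbate transporter family (0.03), Cbs, cystathionine beta-synthase (0.03), Kcnq1, a potassium channel (0.03), and Gper1, a membrane oestrogen receptor (0.03). Their log2 ratios were 1.06, 1.07, 1.07 and 1.10. The same 4 hybridisations enter every such distance.

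The other genes of the pathway were read from lists of 68 genes, of which 67 were tested, 21 were called higher, 9 were called lower and 37 did not pass. Over all genes tested 18.1% were called higher and 13.4% lower, so the share called lower was at the background. Both other genes of the INK4 locus family rose. Cdkn2a, whose locus encodes p16 and ARF, rose by a log2 ratio of 0.96 ± 0.12 (limma adjusted p = 1.70e-05), with the transcript read by its single probe not assigned here. Cdkn2d, which encodes p19, rose by 0.42 ± 0.13 (adjusted p = 0.0182). Together with the members, 7 of 7 INK4 and CIP/KIP genes on the array were called higher, beside 18.1% of all genes tested. Of these, Cdkn1a was at the threshold, and none of the 7 was called with median centring.

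Downstream of CDK4 and CDK6, 5 of 13 RB and E2F family genes were called higher, 1 was called lower and 7 did not pass, with a list median of 0.16 against 0.01 over all genes. Over all genes tested 18.1% were called higher and 13.4% lower. Rb1, the substrate of these kinases, rose (0.91 ± 0.12, limma adjusted p = 2.91e-05, with 0.89 in replicate 1 and 0.93 in replicate 2). Tfdp2, an E2F dimer partner, rose (0.68 ± 0.13), as did the activator E2f2 (0.47 ± 0.13). Over the mean of the tested Tfdp2 probes the rise was smaller (0.46, limma adjusted p = 0.0127). E2f4, the main E2F of resting cells and a cofactor for multiciliated cell genes, fell (-0.55 ± 0.12, limma adjusted p = 0.00274).

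Of 16 S phase genes known as E2F targets, 7 were called higher, 0 were called lower and 9 did not pass, with a median of 0.26. At an unadjusted limma p below 0.05, 8 were higher and 1 was lower. The called shares over all genes tested were 18.1% higher and 13.4% lower. The helicase subunits Mcm6 (0.68 ± 0.12) and Mcm7 (0.60 ± 0.13) and the sliding clamp Pcna (0.66 ± 0.16) rose most. Pcna gave 1.08 in replicate 1 and 0.25 in replicate 2. With median centring in place of loess these ratios were 0.25 for Mcm6, 0.18 for Mcm7 and 0.23 for Pcna, each with a limma adjusted p of 1, so the sizes given depend on the normalization. The rises of these replication genes stood beside the fall of Ccnd1 in the same hybridisations.

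Of 12 genes of cyclin E, cyclin A, CDK2 and their regulators, 3 were called lower, 0 were called higher and 9 did not pass, with a median of -0.19. At an unadjusted limma p below 0.05 the counts were again 3 lower and 0 higher. The called shares over all genes tested were 13.4% lower and 18.1% higher. Cdk7, the CDK-activating kinase, fell (-0.51 ± 0.13), as did Ccne2, a cyclin E (-0.50 ± 0.14), and Skp2, the ubiquitin ligase subunit that marks p27 for breakdown (-0.47 ± 0.12, limma adjusted p = 0.0081). Replicates 1 and 2 gave -0.72 and -0.30 for Cdk7, -0.22 and -0.78 for Ccne2, and -0.41 and -0.53 for Skp2. Of 9 genes for turnover and folding of the D cyclins and their kinases, 0 passed limma's test, also at an unadjusted p below 0.05, with a median of 0.03. Their log2 ratios ran from -0.20 for Uhmk1, a kinase gene, to 0.15 for Cryab, a small heat shock protein gene, both chosen after their values were seen as the ends of the range.

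Of 15 tested p53 targets other than Cdkn1a, 7 were called higher, 5 were called lower and 3 did not pass, with a median of 0.08. Over all genes tested 18.1% were called higher and 13.4% lower. The antiproliferative gene Btg2 (0.93 ± 0.12) and the sestrins Sesn2 (0.81 ± 0.12) and Sesn1 (0.78 ± 0.12) rose. The cyclin gene Ccng1 (-1.10 ± 0.13), the polo-like kinase gene Plk2 (-1.05 ± 0.14) and the desmosomal gene Perp (-0.69 ± 0.12) fell. Genes of this list thus lay on both sides of the Cdkn1a ratio of 0.35.

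**Figure D4:**
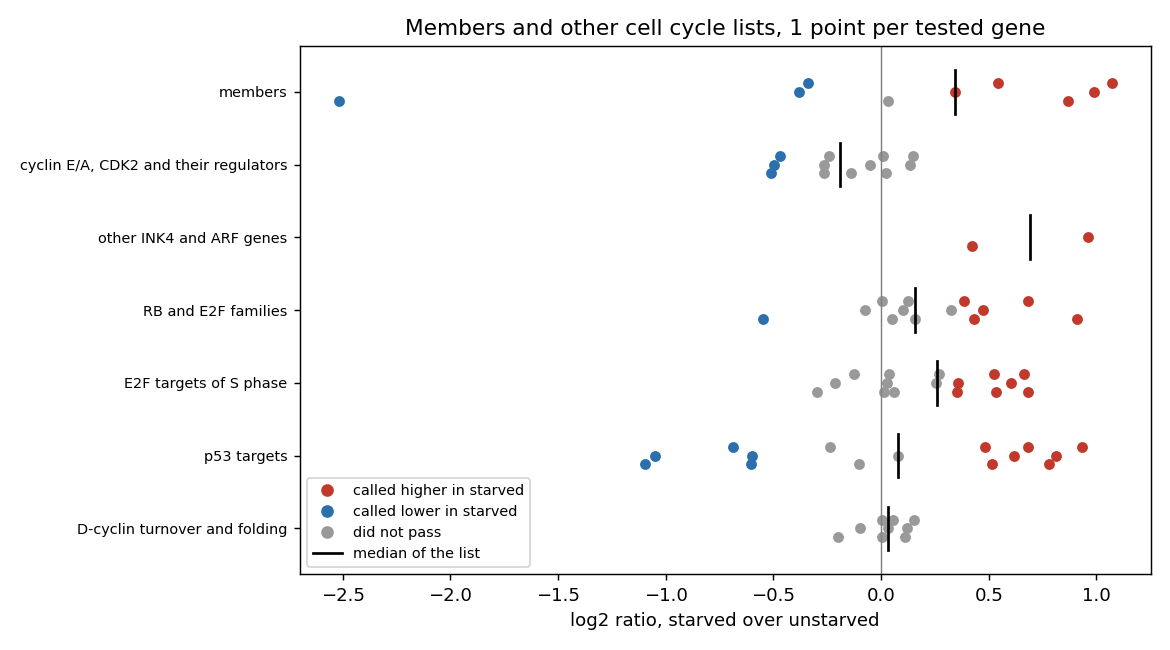
Log2 ratio, starved over unstarved, for each tested gene of the members and of the 6 other cell cycle lists (rows), coloured by call, with the list median as a black bar. Points of the INK4 and ARF row lie right of 0, those of the cyclin E/A row that were called lie left of it, and the p53 target row has calls on both sides.

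As a check of the label, all 14 collecting duct and kidney epithelial markers were well above background in at least 1 group, 5 of them higher and 1 lower in starved cells. Their summed linear level was 510474 to 593852 in starved and 555123 to 622090 in unstarved samples. Over all genes tested 18.1% were called higher and 13.4% lower. Of 9 fibroblast markers 3 were above background in a group and 6 (Col3a1, Dcn, Lum, Pdgfra, Pdgfrb and Thy1) passed on 0 arrays. Col1a1 (-1.01) was called lower in starved cells and Col1a2 was not called (-0.11, limma adjusted p = 0.53). Postn was called lower too, but was above background on 0 of 4 starved and 4 of 4 unstarved arrays. It thus entered the test through the unstarved group alone. Fibroblast sums were 1191 to 1260 in starved and 1559 to 1690 in unstarved samples. Of 6 endothelial markers 0 passed on all arrays of a group, and sums were 591 to 669 in starved and 605 to 632 in unstarved samples. Of these, 5 passed on 0 arrays, while Tek at best passed on 3 of 4 arrays in each group. Of 6 leukocyte markers 3 passed, and Itgam, Adgre1 and Cd79a passed on 0 arrays. Ptprc was called lower (-0.50), but was above background on 2 of 4 starved and 4 of 4 unstarved arrays and so entered through the unstarved group. Cd68 and Cd3e were not called. Leukocyte sums were 988 to 1158 in starved and 1152 to 1397 in unstarved samples. The fibroblast sum was lower in every starved sample than in every unstarved one, and the part of these markers in the results was not tested.

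Normalization changed these calls more than any other step tried on the reported replicates. With loess replaced by median centring, the median distance between the replicates of a gene grew to 0.738, against 0.172 with loess, and 1 of the 9 members, Ccnd1, was called (-2.62, limma adjusted p = 8.9e-07). All 5 inhibitors kept a positive mean there, with 0.82 for Cdkn1b, 0.97 for Cdkn1c, 0.86 for Cdkn2b, 0.38 for Cdkn2c and 0.19 for Cdkn1a, and none was called, while 2 members were higher at an unadjusted limma p below 0.05. The replicates of Cdkn2b then gave 1.36 and 0.36, and those of Cdkn2c 0.87 and -0.10. Those of Cdk6 gave 0.09 and -1.38, and those of Cdkn1a 0.53 and -0.14, so replicates of these genes lay on opposite sides of 0. Both replicates of Ccnd1, Ccnd3, Cdkn1b and Cdkn1c kept the sign of their mean. Cdk4 turned to -0.24.

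**Figure D5:**
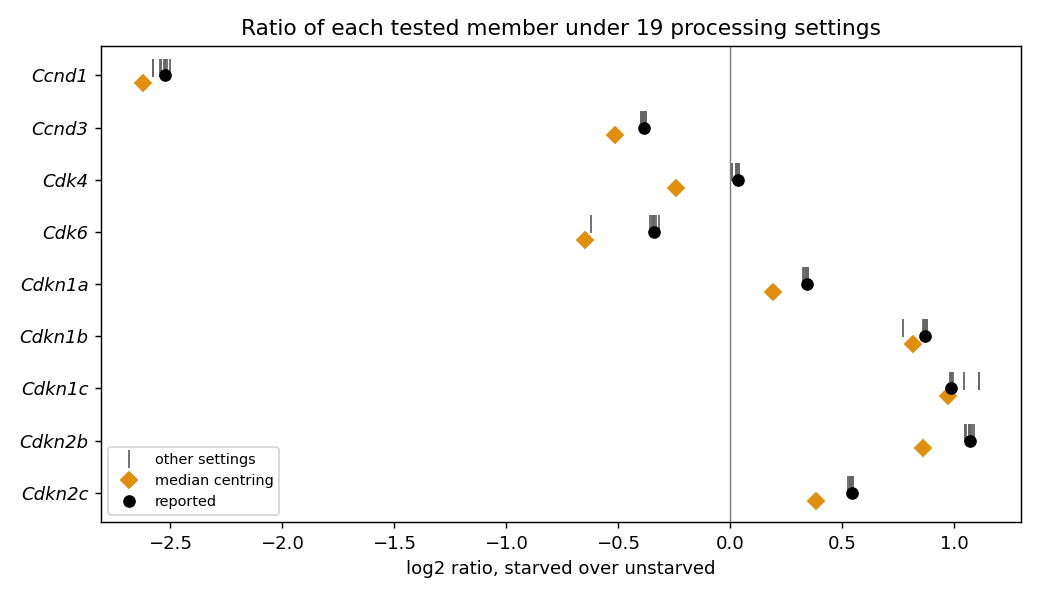
Log2 ratio of each tested member (rows) as reported (black circle), with median centring in place of loess (orange diamond) and under the other processing settings (grey ticks). Ccnd1 stays left of -2.4 throughout, Cdk6 spreads with the choice of probe, and Cdk4 crosses 0 with median centring.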

How the data were processed

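Deposited scanner files of 4 Agilent 2-colour arrays hold mean spot intensity and median local background intensity, not background-subtracted. The submitters' processing notes name Agilent Feature Extraction 9.5.3.1. The deposited processed intensity values were background-subtracted and dye-normalized, per the file headers. In the deposited value table, intensity is linear and follows the scanner's processed signal scaled by a single factor for each array (0.753 to 0.806), with a floor of 15 and column medians of 74.7 to 77.1; its direction follows the dye labels and the reason for its scaling is unknown.

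Here mean signals were corrected with normexp (offset 50) and loess within arrays in limma 3.58.1 under R 4.3.3, with controls and flagged spots (583 in all) left out, and turned to log2 starved over unstarved; no deposited log2 values were used. Spots of a probe were averaged. Probes well above background on all 4 arrays of a group were kept (24610), and the brightest stood for its gene (16080 genes). Probe names followed accessions through a RefSeq table where it held them. Arrays of each replicate were averaged, and 2 replicate ratios were fitted with lmFit and eBayes, two-sided, with 1 residual degree of freedom and 15.0 prior ones (prior SD 0.18), so errors rest largely on a spread shared by all genes. Levels are single-channel values after loess and Aquantile and are not compared between probes. The number of arrays limits the precision. The fit was also run on data simulated from its own prior spread, which cannot test the tie between replicate and dye orientation.

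Sample titles name replicates 1 and 2 with 2 arrays each, and the dye labels put each replicate in 1 orientation, at odds with the series text, which speaks of a dye swap within each pair; labels were followed. All arrays share 1 slide and 1 scan, so no batch could be tested. Ratios of arrays of a replicate correlated at 0.991, and those of different replicates at 0.824 to 0.830. Deviations of same-numbered samples from group means correlated at -0.297 across genes, and since these samples carry opposite dyes this does not test the pairing, which the shared hybridisation gives.

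All members were named. Of each pathway list (cyclin E/A and CDK2, other INK4 and ARF, RB and E2F, E2F targets of S phase, p53 targets, D-cyclin turnover and folding) the 3 called genes with the largest rises and the 3 with the largest falls were named, and for the members with the largest fall and rise the 4 nearest genes. Marker lists were collecting duct, fibroblast, endothelium and leukocyte. Members and lists were chosen with earlier results of these data known. Alternatives covered background correction, normalization, the deposited table, filters, probe choice, names, array pairing, dye, block and leaving out arrays.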

Additional observations from a re-analysis of the deposited data

Results flagged for a closer look

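Among 51 sets of 4 values checked for the member probes (ratios over hybridisations, levels in starved samples and levels in unstarved samples), 1 had a sample far from the others. For the Cdkn2c probe A_51_P513720, the starved sample of hybridisation 4 had a log2 level of 13.55, and the other starved samples had 13.41, 13.38 and 13.39, a gap of 0.839 of the whole range, which is above Dixon's 95% critical value for 4 samples. Chance flags about 1 in 20 such sets. The unstarved sample of the same hybridisation was also the highest of its group (12.99, with 12.88, 12.92 and 12.88 in the others), and the log2 ratio there, 0.55, lay beside 0.53, 0.46 and 0.51 in hybridisations 1, 3 and 2.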

How the results depend on the processing

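The 9 tested members were recomputed under 18 alternatives. Median centring in place of loess gave 249 called genes, 0 members called higher and 1 called lower (Ccnd1), turned Cdk4 to -0.24, and ended the calls of all 18 named pathway genes. Each kept its direction. The named rises shrank unequally, to 0.18 for Mcm7, 0.23 for Pcna and 0.25 for Mcm6, with Rb1 at 0.81. The named falls grew, with Ccne2 at -0.53 against -0.50 as reported and Plk2 at -1.34 against -1.05. With median centring the median of all genes was -0.08. Pairing the arrays as 1+2 and 3+4 gave 14298 called genes, pairing 1+4 and 2+3 gave 14105 and a dye term gave 14211, and Cdk4 passed with the first pairing (adjusted p = 0.0337) and with the dye term (0.0341) at an unchanged ratio of 0.03, because each of these averages or removes the difference between replicates. With replicate as a random block over 4 arrays, 5364 genes, 5 members higher and 2 lower were called (within-replicate correlation 0.949), and without the replicate block, on single-channel levels, 5862 genes, 5 members higher and 3 lower. Leaving out 1 hybridisation in turn gave 4965 to 5517 genes, 5 members higher throughout and 2 to 3 lower.

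Cdk6 lost its call with processed signals (adjusted p = 0.0884), the deposited table (0.0856), the filter in both groups (0.0528), every probe as a feature (0.0569), the random block (0.0525), median centring (1) and without hybridisation 1 (0.0516) or 4 (0.0582). Cdkn1a lost its call with normexp offset 10 (0.0547), processed signals (0.098), the deposited table (0.094), the filter in both groups (0.0508), every probe as a feature (0.0543) and median centring (1). Ccnd3, Cdkn1b, Cdkn1c, Cdkn2b and Cdkn2c lost theirs only with median centring. Ccnd3 was at the threshold with processed signals (limma adjusted p = 0.0498) and the deposited table (0.0479). With every probe as a feature on these 2 sources it did not pass (0.0606 and 0.0589). With no filter on dim probes Ccnd2 was called lower (adjusted p = 0.0433) on a probe below background in starved samples, and no size is given. Dim signal limits Ccnd2 and 1 Cdkn1b probe, and 2 replicates limit all members. The cause of these changes was not tested except as stated.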
